A study of Mus musculus with 8 samples.

Results

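The genes described here build and police proteins in the endoplasmic reticulum (ER): 24 genes of folding chaperones, disulfide oxidoreductases and prolyl isomerases, and 12 genes of ER-associated degradation (ERAD). They were taken by gene symbol from the deposited table of read counts and are 36 of its 55450 genes. Of the 36, 35 had enough reads to be tested, as had 16662 genes in all. The exception was Derl3. RNA was sequenced from c-Kit-positive cells, which were enriched on magnetic beads from subcutaneous B16F10 tumours of wild-type C57BL6 mice, and 2 groups of 4 libraries were compared. In the PERK KO group (libraries 1 to 4) the injected cells were PERK KO B16F10 melanoma, that is, a pigmented mouse melanoma line that lacks the ER stress kinase PERK. In the Scramble group (libraries 2 to 5) they were Scramble B16F10 melanoma, the control line. The hosts of both groups were age- and sex-matched, 6 weeks old at injection of 150000 cells, and were wild type per the labels, so that PERK was removed in the injected cells alone. Tumours were taken on day 17, digested, freed of red cells and passed over the beads without flow sorting. The labels do not say how many clones the PERK KO line holds or whether each tumour had a mouse of its own. P-values therefore measure the spread between these samples.

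Proteins entering the ER are held by BiP (Hspa5), an Hsp70 chaperone, and its partners, or, once they carry a sugar, by the lectins calnexin and calreticulin. Protein disulfide isomerases join their cysteines, and prolyl isomerases turn their proline bonds. Chains that fail are trimmed by EDEM proteins, passed through the Sel1l-Syvn1 ubiquitin ligase in the membrane and pulled out by Vcp for the proteasome. Under ER stress the sensors ATF6 and IRE1, through XBP1, raise many of these genes, while the sensor PERK lowers translation and acts on transcription through ATF4.

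The promoters of several of these genes carry the ER stress response element, which ATF6 and XBP1 are known to use. It was searched as CCAAT and CCACG with any 9 bases between them, on both strands, from 250 bases before to 50 bases after each start site (RefSeq sequences, build GRCm38.p6, which is mm10). Promoters were at hand for 30 of the 36 genes. Sil1, Hyou1, Manf, Ero1l, Ero1lb and Derl1 were not searched. The element stood in 8 of the 30, namely 6 of 19 folding genes and 2 of 11 ERAD genes, and in 37 of 27025 genes in all (0.137%). The shorter form ERSE-II, searched as ATTGG and CCACG with any 1 base between them, stood in 2 of the 30 genes and in 12 of 27025 genes in all (0.0444%). Each element is given with 10 bases on either side, read on the strand where the motif runs forward, with the fixed letters of the motif in capitals. They are shown because 2 of the genes that carry them, Creld2 and Canx, passed the test in opposite directions, while the other 7 tested carriers did not pass. By the same test, defined below, 13.8% of all tested genes changed either way. Over 19 alternative settings Canx lost its call in 10 and Creld2 in 1. The ERSE elements were these.
Hspa5 (chr2:34772015-34772053, + strand): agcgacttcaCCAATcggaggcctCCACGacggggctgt
Hsp90b1 (chr10:86705628-86705666, - strand): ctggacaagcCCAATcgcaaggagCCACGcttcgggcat
Hsp90b1 (chr10:86705523-86705561, + strand): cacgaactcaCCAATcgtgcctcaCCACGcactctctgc
Calr (chr8:84847065-84847103, + strand): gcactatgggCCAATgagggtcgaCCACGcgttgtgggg
Canx (chr11:50325790-50325828, - strand): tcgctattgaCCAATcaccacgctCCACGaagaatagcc
Pdia6 (chr12:17266481-17266519, + strand): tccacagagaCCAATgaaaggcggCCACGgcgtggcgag
Creld2 (chr15:88819510-88819548, - strand): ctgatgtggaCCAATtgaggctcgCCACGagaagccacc
Syvn1 (chr19:6046522-6046560, + strand): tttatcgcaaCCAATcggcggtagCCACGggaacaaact
Derl3 (chr10:75893232-75893270, - strand): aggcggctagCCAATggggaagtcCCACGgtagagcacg
The ERSE-II elements were these.
Dnajb11 (chr16:22857842-22857872, + strand): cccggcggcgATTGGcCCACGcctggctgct
Herpud1 (chr8:94386367-94386397, + strand): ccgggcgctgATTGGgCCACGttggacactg

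Among the carriers of the long element, Creld2 rose, Canx fell, and the other tested genes (Hspa5, Hsp90b1, Calr, Pdia6 and Syvn1) did not pass the test, as described below. Counted from the start site, with bases before it negative, the element began at -65 in Hspa5, -44 in Syvn1, -98 in Pdia6, -145 in Canx and, on the opposite strand, -126 in Creld2. The whole promoters of Canx and Creld2, whose levels changed in opposite directions, are given 5′ to 3′ along the gene with the element in capitals.
Canx (chr11:50325624-50325923, - strand): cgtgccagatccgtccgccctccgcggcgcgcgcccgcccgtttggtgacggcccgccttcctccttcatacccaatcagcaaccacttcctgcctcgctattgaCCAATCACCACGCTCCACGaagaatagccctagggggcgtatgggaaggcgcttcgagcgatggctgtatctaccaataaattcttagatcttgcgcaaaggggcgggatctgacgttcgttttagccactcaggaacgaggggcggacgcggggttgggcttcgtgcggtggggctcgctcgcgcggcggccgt
Creld2 (chr15:88819396-88819695, + strand): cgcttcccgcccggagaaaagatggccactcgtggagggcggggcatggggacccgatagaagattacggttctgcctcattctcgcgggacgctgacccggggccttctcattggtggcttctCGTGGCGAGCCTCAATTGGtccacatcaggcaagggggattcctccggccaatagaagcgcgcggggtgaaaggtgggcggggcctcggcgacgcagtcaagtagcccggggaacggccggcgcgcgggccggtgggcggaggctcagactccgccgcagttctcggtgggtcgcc
The XBP1 element UPRE was searched as TGACGTGG and the ATF4 site as TTGCATCA, again on both strands. UPRE stood at Txndc5, Txndc11 and Vcp (3 of 30 genes, against 0.714% of all genes) and the ATF4 site at Herpud1 (1 of 30 genes, against 1.03%). In Herpud1 the ATF4 site lay upstream of ERSE-II, which began at -52, without overlap. No searched motif stood at P4hb, Pdia4, Uggt1 or Sel1l, which says only that these letters are not in this window. Sil1, which also passed the test, had no promoter to search. A match describes letters and shows no binding.

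Library totals ran from 29006949 to 47530393 counts in PERK KO and from 44950033 to 56697163 counts in Scramble libraries. Levels are given as CPM, read counts divided by library size and adjusted with TMM factors, which ran from 0.863 to 1.03 in PERK KO and from 1.02 to 1.03 in Scramble libraries. Eif2ak3, the gene of PERK, had 8.60, 7.73, 22.7 and 16.3 CPM in PERK KO libraries 1 to 4, against 53.4, 56.4, 59.1 and 48.2 CPM in Scramble libraries 2 to 5 (log2 change -1.97, edgeR adjusted p = 0.00371). All 4 PERK KO libraries were lower, as their labels say. Kit had 175 ± 37.7 CPM in PERK KO and 196 ± 23.7 CPM in Scramble libraries (SD, n = 4 each, edgeR adjusted p = 0.559). The labels call the cells infiltrating precursors. Both groups held much melanocyte RNA: 15 melanocyte lineage genes summed to 21034 to 25495 CPM in PERK KO and 29807 to 30477 CPM in Scramble libraries, and 9 of them fell. Of 12 pan-leukocyte genes 11 rose, with sums of 574 to 1350.1 CPM in PERK KO and 339 to 402 CPM in Scramble libraries. Of 12 tested blood progenitor genes (16 listed) 6 rose, with sums of 129 to 338 CPM in PERK KO and 62.8 to 83.6 CPM in Scramble libraries, and Mpo and Prtn3 had no count in any library. All 10 mast cell genes rose (702 to 3132 CPM in PERK KO and 18.8 to 162 CPM in Scramble libraries), as did 12 of 13 glandular epithelium genes (178 to 403 CPM in PERK KO and 5.52 to 11.7 CPM in Scramble libraries) and 4 of 9 tested B and plasma cell genes of 14 listed (90.02 to 297 CPM in PERK KO and 44.98 to 60.7 CPM in Scramble libraries). Of 10 fibroblast genes 1 rose (58.8 to 216 CPM in PERK KO and 17.7 to 218 CPM in Scramble libraries). Mitochondrial genes took 5.22, 19.2, 13.9 and 6.89% of counts in PERK KO libraries 1 to 4, against 3.71 to 4.50% in Scramble libraries, so that PERK KO libraries 2 and 3 stood apart. The part of these differences in the results below was not tested. In such bulk samples fewer cells of a type and less RNA per cell cannot be told apart.

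The comparison asks how the ER's folding and degradation genes differ in the c-Kit-enriched fraction when the tumour cells lack PERK. Of the 35 tested genes 28 did not pass the test. Of the 24 folding genes, Sil1, P4hb, Pdia4 and Creld2 rose and Canx and Uggt1 fell. Of the 11 tested ERAD genes Sel1l fell and none rose, while 1 was higher at an unadjusted p under 0.05 (as were 13.3% of all genes) and 1 passed as higher in DESeq2 and in limma-voom. A gene counts as changed where edgeR's quasi-likelihood test gave a Benjamini-Hochberg adjusted p under 0.05 over all 16662 genes. By that rule 7.66% of all tested genes rose, 6.13% fell and 13.8% changed either way. With upper-quartile scaling 68.7% of all changed genes were higher in PERK KO, against 55.5% with TMM. In the main edgeR test with TMM, 16.7% of folding genes rose, 8.3% fell and 25.0% changed either way. For ERAD genes the same shares were 0, 9.1 and 9.1%. With so few members these shares rest on counts of 0 to 6 genes each.

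Changes were small. The median log2 change (PERK KO minus Scramble) was 0.063 over the folding genes and 0.14 over the tested ERAD genes, against -0.018 over all tested genes. With library totals alone the folding median was -0.013 and the ERAD median 0.067. Single values ran from -0.34 to 0.79 over folding and from -0.30 to 0.35 over ERAD genes. The median size of change, ignoring sign, was 0.21 over the 35 genes and 0.31 over all genes, and 22.7% of all tested genes had a change larger than that of any member. The 24 folding genes together took 8051 to 8865 CPM in PERK KO and 8077 to 8280.2 CPM in Scramble libraries, and the 12 ERAD genes 1351 to 1412 CPM in PERK KO and 1370.1 to 1419.8 CPM in Scramble libraries, so both sums overlapped between groups. At 9 of the 35 genes (25.7%) PERK KO and Scramble libraries were fully apart, 4 of them higher and 5 lower in PERK KO. The same held for 21.3% of all tested genes (10.2% higher and 11.1% lower).

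**Figure D1:**
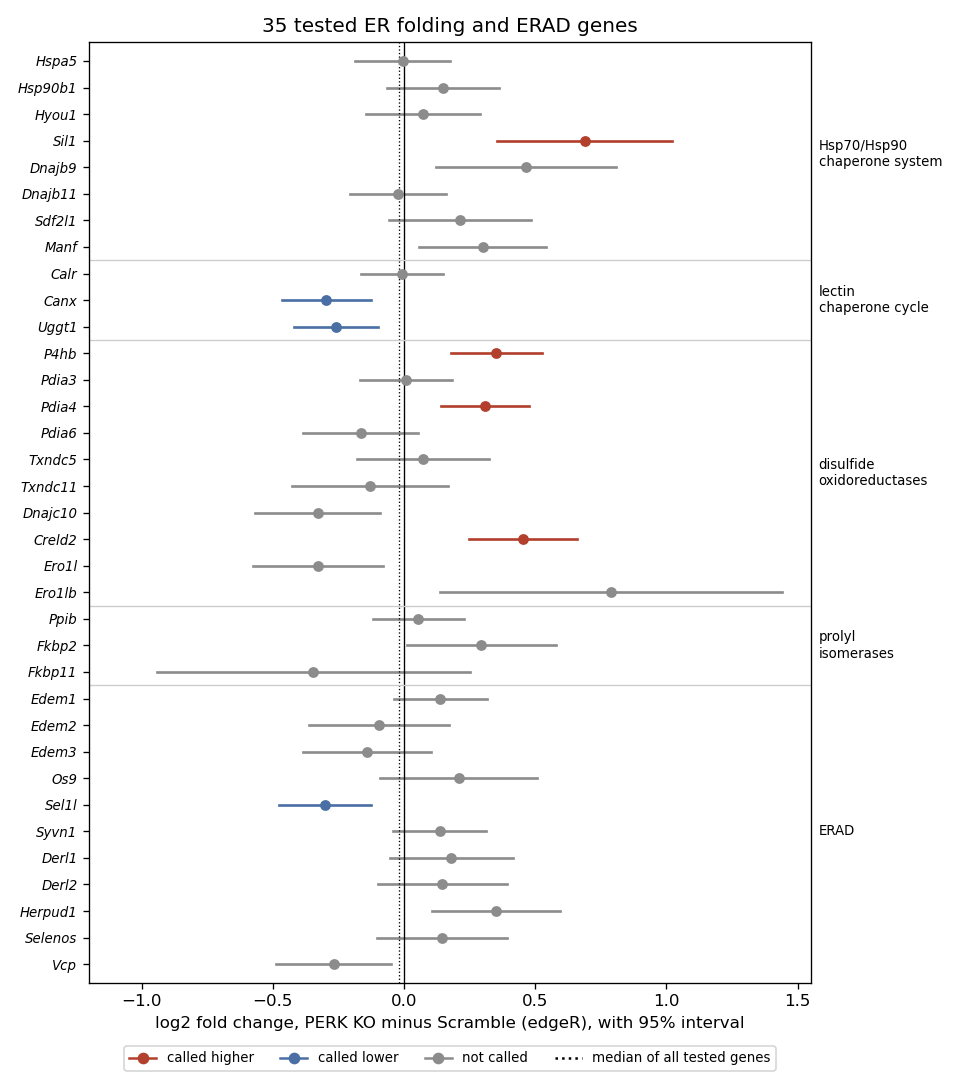
Log2 fold change (PERK KO minus Scramble, horizontal axis) with its 95% interval for each of the 35 tested genes, grouped by role, with the genes that passed the edgeR test in colour and the median of all tested genes as a dotted line. Sil1, P4hb, Pdia4 and Creld2 lie right of 0, Canx, Uggt1 and Sel1l lie left of it, and no point lies beyond 0.79.

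The counts depended on which libraries and which test were used. With DESeq2 the same 7 genes passed, joined by Dnajb9, Manf and Herpud1 as higher. By that tool 11.3% of all genes were higher, 6.61% lower and 17.9% either. Without PERK KO library 3 the count of risen folding genes was 7 rather than 4 (8.01% of all genes then rose), and it was 2 without Scramble library 3 and 2 without Scramble library 5 (3.69 and 4.45% of all genes). The count of fallen folding genes was 1 without PERK KO library 1 or 2, and 0 without PERK KO library 4 or any single Scramble library. The share of all genes that fell was 5.73, 5.22 and 5.39% without PERK KO library 1, 2 and 4, and 2.53 to 3.41% without a single Scramble library. Sel1l, the fallen ERAD gene, no longer passed without PERK KO library 1 or 2 or Scramble library 2, 3 or 5. Without PERK KO libraries 2 and 3 together, a set chosen after seeing the data, 6 folding genes rose, 3 fell, 1 ERAD gene rose and 1 fell, and of all genes 7.2% rose and 7.21% fell. Sil1 and Creld2 passed in each of the 8 sets that leave out a single library.

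In the Hsp70 and Hsp90 machinery 1 of 8 genes, Sil1, rose, where 7.66% of all tested genes rose. The central chaperone did not pass the test. Hspa5 (BiP, chr2:34771970-34777547 in mm10, ENSMUSG00000026864.13) had 957, 781, 897 and 909 CPM in PERK KO libraries 1 to 4, against 879, 914, 914 and 851 CPM in Scramble libraries 2 to 5. The groups overlapped, with PERK KO library 1 the highest and PERK KO library 2 the lowest of all 8. The log2 difference was -0.0052 (95% interval -0.19 to 0.18, edgeR adjusted p = 0.982), and with DESeq2, RLE or upper-quartile scaling its sign turned. Hsp90b1 (GRP94, the ER's Hsp90) had 1452, 1259.5, 1170 and 1158 CPM in PERK KO libraries 1 to 4, against 1064, 1109.7, 1098 and 1279 CPM in Scramble libraries 2 to 5. PERK KO library 1 stood highest, and Scramble library 5 lay above PERK KO libraries 2 to 4, and the difference of 0.15 did not pass (SE 0.10, edgeR adjusted p = 0.388).

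Sil1 (ENSMUSG00000024357.10), a nucleotide exchange factor that makes BiP release its client, had 31.97, 37.3, 30.5 and 25.3 CPM in PERK KO libraries 1 to 4, against 18.02, 23.4, 19.5 and 16.7 CPM in Scramble libraries 2 to 5. Every PERK KO library lay above every Scramble library. Sil1 rose 1.61-fold, a log2 change of 0.69 with SE 0.15 (edgeR adjusted p = 0.0128), and in the 8 sets without a single library its adjusted p ran from 0.00719 to 0.049. Without PERK KO libraries 2 and 3 together it missed the threshold (adjusted p = 0.0582). Hyou1 (GRP170), the other exchange factor of BiP in the group, had 276, 332, 311 and 254 CPM in PERK KO libraries 1 to 4, against 278, 295, 294 and 250.01 CPM in Scramble libraries 2 to 5. Its groups overlapped, with a difference of 0.072 (95% interval -0.14 to 0.29, edgeR adjusted p = 0.731).

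Among the J-domain partners that hand clients to BiP, Dnajb9 (ERdj4) had 126, 104, 75.5 and 109 CPM in PERK KO libraries 1 to 4, against 66.1, 76.8, 64.6 and 92.9 CPM in Scramble libraries 2 to 5. PERK KO library 3 lay among the Scramble libraries and Scramble library 5 above it. The difference of 0.46 missed the threshold with all libraries (edgeR adjusted p = 0.0738) and passed without PERK KO library 3 (adjusted p = 0.0176), without libraries 2 and 3 (0.0256), in DESeq2 (0.0185) and with upper-quartile scaling (0.046). Dnajb11 (ERdj3) averaged 73.9 ± 4.51 CPM in PERK KO and 75.1 ± 3.58 CPM in Scramble libraries (SD, n = 4 each), with a difference of -0.023 (95% interval -0.21 to 0.16, edgeR adjusted p = 0.912). Sdf2l1, which works in a complex with ERdj3, had 90.3, 89.01, 85.2 and 60.2 CPM in PERK KO libraries 1 to 4, against 69.2, 67.3, 74.9 and 68.5 CPM in Scramble libraries 2 to 5. PERK KO libraries 1 to 3 lay above all Scramble libraries and PERK KO library 4 below all of them. Its difference was 0.21 (edgeR adjusted p = 0.311), and it passed without PERK KO library 4 (adjusted p = 0.0298). Manf, a small secreted protein that binds BiP, averaged 232 ± 34.9 CPM in PERK KO and 188 ± 16.6 CPM in Scramble libraries (SD, n = 4 each), a difference of 0.30 (edgeR adjusted p = 0.101), and it passed in DESeq2 and limma-voom (adjusted p = 0.0196 and 0.043).

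**Figure D2:**
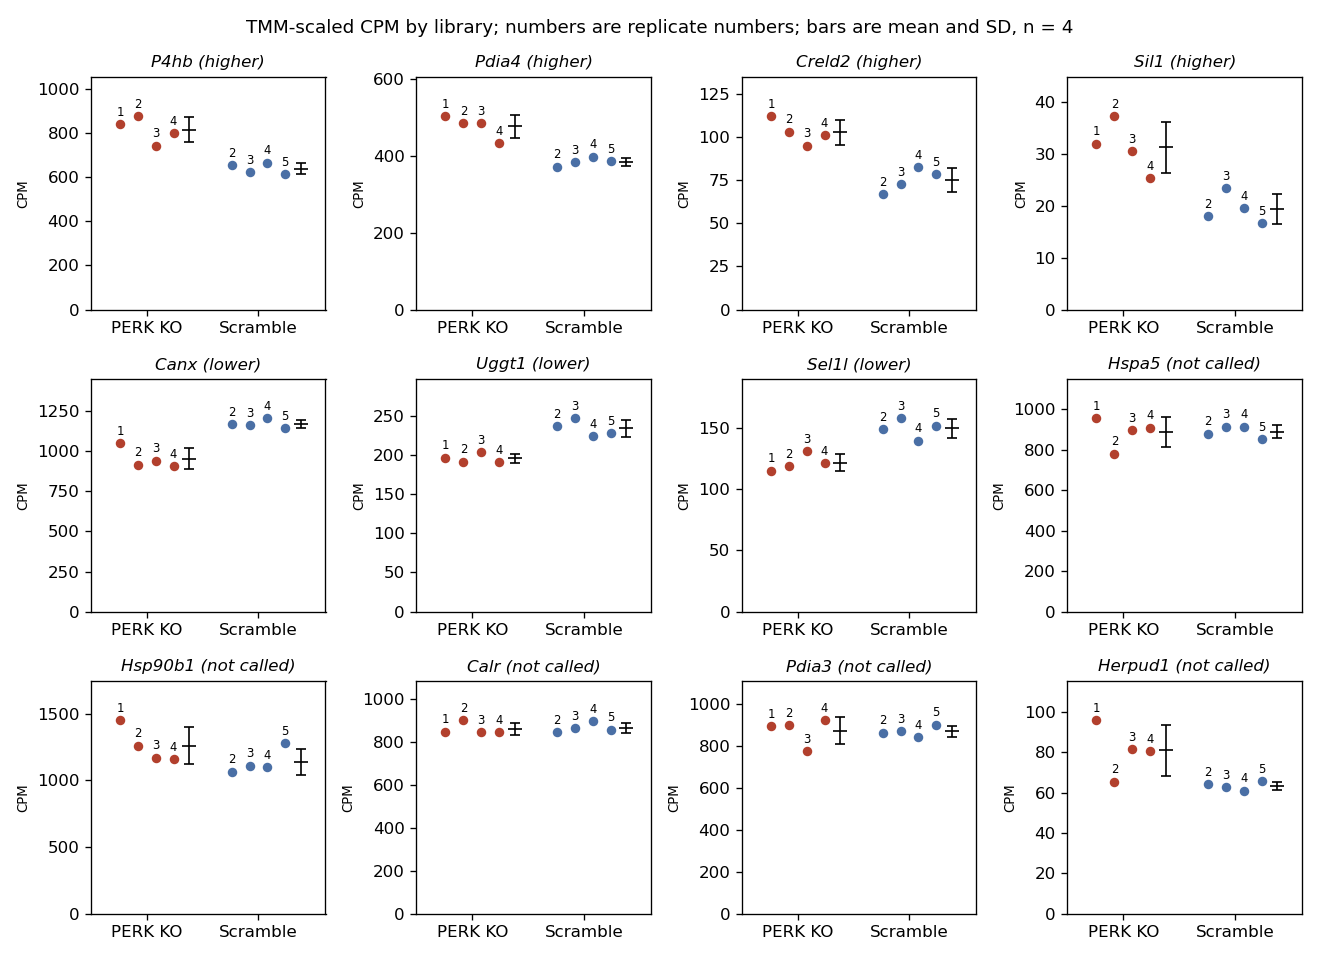
TMM-scaled CPM (vertical axis, from 0) of 12 genes in each library, PERK KO left and Scramble right, with replicate numbers above the points and bars for mean and SD (n = 4). In the upper row P4hb, Pdia4, Creld2 and Sil1 are higher in every PERK KO library, and Canx, Uggt1 and Sel1l in the middle row are lower in every one, while Hspa5, Calr and Pdia3 overlap.

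In the lectin chaperone cycle 2 of 3 genes fell, where 6.13% of all tested genes fell. Canx (calnexin, chr11:50293961-50325673, ENSMUSG00000020368.15), the membrane-bound lectin that holds newly glycosylated proteins, had 1051, 918, 943 and 908 CPM in PERK KO libraries 1 to 4, against 1169.5, 1166, 1209 and 1145 CPM in Scramble libraries 2 to 5. All PERK KO libraries lay below all Scramble libraries, and PERK KO library 1 came nearest. Canx fell by 0.30 in log2 terms and was 1.23-fold lower in PERK KO (SE 0.078, edgeR adjusted p = 0.0269). Uggt1 (chr1:36140027-36244720, ENSMUSG00000037470.14), which puts a glucose back on misfolded glycoproteins so that the lectins take them up again, had 197, 192, 204 and 191 CPM in PERK KO libraries 1 to 4, against 237, 248, 224 and 228 CPM in Scramble libraries 2 to 5, again without overlap. Uggt1 fell by 0.26 (SE 0.073, edgeR adjusted p = 0.0372). Calr (calreticulin), the soluble lectin, had 849.7, 904, 846 and 848 CPM in PERK KO libraries 1 to 4, against 846, 866, 898 and 859 CPM in Scramble libraries 2 to 5. The Calr groups overlapped, with a difference of -0.0085 (95% interval -0.16 to 0.15, edgeR adjusted p = 0.965).

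Both lectin-cycle calls rested on the full set of libraries. The Canx call ended without PERK KO library 2 or 4 (adjusted p = 0.0543 and 0.0589) and without Scramble library 2, 3, 4 or 5 (adjusted p = 0.0772, 0.0819, 0.086 and 0.0608), with upper-quartile scaling (adjusted p = 0.0771) and without PERK KO libraries 2 and 3 together (adjusted p = 0.0603). The Uggt1 call ended without PERK KO library 1, 2 or 4 (adjusted p = 0.055, 0.0609 and 0.0687) and without Scramble library 2, 3, 4 or 5 (adjusted p = 0.109, 0.137, 0.0705 and 0.0748). It also ended with RLE or upper-quartile scaling (adjusted p = 0.0742 and 0.124) and with no filter or a stricter one (adjusted p = 0.0693 and 0.0538). The log2 change stayed between -0.34 and -0.27 for Canx and between -0.28 and -0.23 for Uggt1 over the 8 sets. The summed melanocyte markers given above were lower in the same PERK KO libraries, and their part in these calls was not tested.

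Of the 10 disulfide oxidoreductases, 3 rose, where 7.66% of all tested genes rose. The median log2 change of the 10 was 0.040, with 6 values above 0 and 4 below. P4hb (PDI, chr11:120560298-120573253, ENSMUSG00000025130.11), the founding protein disulfide isomerase, had 838, 876, 742 and 799 CPM in PERK KO libraries 1 to 4, against 653, 622, 665 and 611 CPM in Scramble libraries 2 to 5. The lowest PERK KO library lay above the highest Scramble library. P4hb rose 1.28-fold (log2 change 0.35, SE 0.080, edgeR adjusted p = 0.0144). Pdia4 (ERp72, chr6:47796141-47813430, ENSMUSG00000025823.9) had 505, 486, 486 and 434 CPM in PERK KO libraries 1 to 4, against 372, 384, 398 and 387 CPM in Scramble libraries 2 to 5, with PERK KO library 4 the lowest of its group and still above all Scramble libraries. Pdia4 rose 1.24-fold (0.31, SE 0.077, edgeR adjusted p = 0.0207). Creld2 (chr15:88819646-88826683, ENSMUSG00000023272.4), an ER protein with isomerase-like cysteine pairs, had 112, 103, 95.1 and 101 CPM in PERK KO libraries 1 to 4, against 66.9, 72.8, 82.6 and 78.6 CPM in Scramble libraries 2 to 5, without overlap. Creld2 rose 1.37-fold (0.45, SE 0.094, edgeR adjusted p = 0.00952).

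The P4hb call ended without Scramble library 3 or 5 (adjusted p = 0.0637 and 0.0558) and with library totals alone as scaling (adjusted p = 0.0577). The Pdia4 call ended without any 1 of the Scramble libraries 2 to 5 (adjusted p = 0.0828, 0.0779, 0.0548 and 0.0636) and with library totals alone (adjusted p = 0.11). The Creld2 adjusted p ran from 0.00914 to 0.0437 over the 8 sets. The summed pan-leukocyte, mast cell and glandular epithelium markers given above were also higher in every PERK KO library, and their part in these rises was not tested.

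The remaining isomerases did not pass the test. Pdia3 (ERp57), which works with the lectins, had 897, 899.9, 777 and 925 CPM in PERK KO libraries 1 to 4, against 865, 873, 843 and 903 CPM in Scramble libraries 2 to 5. PERK KO libraries included both the highest and the lowest value, and the difference was 0.0069 (95% interval -0.17 to 0.18, edgeR adjusted p = 0.974). Pdia6 averaged 345 ± 45.00 CPM in PERK KO and 387 ± 25.6 CPM in Scramble libraries (SD, n = 4 each), a difference of -0.17 that did not pass (95% interval -0.39 to 0.055, edgeR adjusted p = 0.345). Txndc5 (ERp46), an isomerase that plasma cells and fibroblasts make in quantity, averaged 140.2 ± 24.2 CPM in PERK KO and 133 ± 4.901 CPM in Scramble libraries (difference 0.072, edgeR adjusted p = 0.778). Txndc11, a membrane-bound partner of EDEM proteins, averaged 50.3 ± 8.88 CPM in PERK KO and 55.1 ± 6.004 CPM in Scramble libraries (difference -0.13, 95% interval -0.42 to 0.17, edgeR adjusted p = 0.628).

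Dnajc10 (ERdj5), a reductase that opens disulfides ahead of degradation, had 60.4, 85.1, 80.6 and 80.5 CPM in PERK KO libraries 1 to 4, against 102, 97.3, 93.1 and 92.8 CPM in Scramble libraries 2 to 5. Every PERK KO library lay below every Scramble library, with PERK KO library 1 far below the rest, yet the difference of -0.33 missed the threshold (SE 0.11, edgeR adjusted p = 0.0692). It passed in limma-voom (adjusted p = 0.0304), with library totals alone (adjusted p = 0.0276) and without PERK KO libraries 2 and 3 (adjusted p = 0.0425). The oxidases that recharge PDI showed differences of opposite sign. Ero1l, the widely expressed and hypoxia-responsive oxidase, had 247, 349, 272 and 292 CPM in PERK KO libraries 1 to 4, against 416, 349, 358 and 333 CPM in Scramble libraries 2 to 5. PERK KO library 2 lay among the Scramble libraries, and the difference was -0.33 (edgeR adjusted p = 0.0807, and 0.0263 without PERK KO library 2). It also passed in limma-voom, with library totals alone and without PERK KO libraries 2 and 3 (adjusted p = 0.0374, 0.0205 and 0.0373). Ero1lb, its paralog of secretory cells, had 12.96, 8.56, 7.54 and 20.5 CPM in PERK KO libraries 1 to 4, against 7.13, 6.18, 6.97 and 8.41 CPM in Scramble libraries 2 to 5. PERK KO libraries 1 and 4 were high, library 2 lay just above and library 3 inside the Scramble range. Its difference was 0.79 (SE 0.30, edgeR adjusted p = 0.107), and it passed without PERK KO library 3 (adjusted p = 0.046) and without libraries 2 and 3 (adjusted p = 0.0146).

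None of the 3 prolyl isomerases passed in edgeR, DESeq2 or limma-voom, and 1 (Fkbp2) had an unadjusted p under 0.05. Ppib (cyclophilin B) averaged 118 ± 7.29 CPM in PERK KO and 113 ± 3.73 CPM in Scramble libraries (SD, n = 4 each; difference 0.054, 95% interval -0.12 to 0.23, edgeR adjusted p = 0.755). Ppib shares 825 exon bases with Snx22 on the other strand. Vcp shares 352 with 1700022I11Rik, Txndc5 224 with Bmp6 and 311 with Gm31834, and Hsp90b1 415 with 1810014B01Rik, all on the other strand. On its own strand Hsp90b1 also shares 84 with Gm15344 and 133 with Gm25745. Again on the other strand, Derl2 shares 231 with Mis12, and Manf 166 with 4930524O07Rik and 146 with Dcaf1. Sil1 shares 108 with AC147989.1 and 88 with AC147989.3, and Syvn1 91 with Mrpl49, also on the other strand. Dnajb9, Pdia3, Pdia4, Pdia6 and Txndc11 share shorter stretches with other genes. The strand setting of the counting is not given in the sources used here, so reads in these stretches cannot be assigned with certainty. Fkbp2 had 84.02, 68.8, 52.5 and 67.9 CPM in PERK KO libraries 1 to 4, against 50.2, 58.00, 57.5 and 57.1 CPM in Scramble libraries 2 to 5, with PERK KO library 3 inside the Scramble range. Its difference of 0.29 did not pass (edgeR adjusted p = 0.171) except without PERK KO library 3 (adjusted p = 0.0311) or without libraries 2 and 3 (adjusted p = 0.0306). Fkbp11, an isomerase of secretory cells including plasma cells, had 16.6, 7.996, 12.01 and 6.88 CPM in PERK KO libraries 1 to 4, against 15.3, 10.1, 14.01 and 15.9 CPM in Scramble libraries 2 to 5. PERK KO libraries 2 and 4 were the lowest and PERK KO library 1 the highest, and the difference of -0.34 did not pass (95% interval -0.94 to 0.25, edgeR adjusted p = 0.49).

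**Figure D3:**
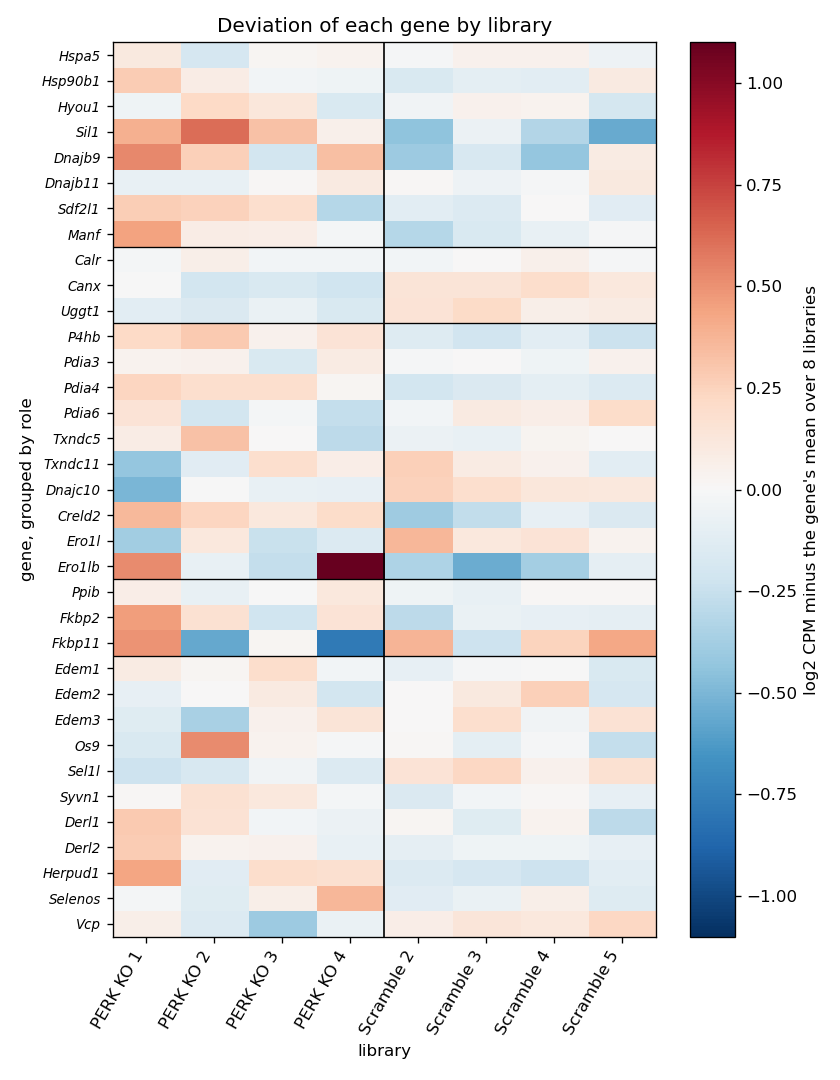
Log2 CPM of each tested gene (rows, grouped by role) minus its mean over the 8 libraries, for PERK KO libraries 1 to 4 (left) and Scramble libraries 2 to 5 (right). PERK KO library 1 holds the highest value of 12 of the 35 genes, and rows vary more among PERK KO than among Scramble libraries.

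Among the 11 tested ERAD genes 1, the adaptor of the ligase, fell, where 6.13% of all tested genes fell. Sel1l (chr12:91806043-91849157, ENSMUSG00000020964.14), the adaptor that carries substrates to the ligase, had 115, 119, 131 and 121 CPM in PERK KO libraries 1 to 4, against 149.5, 158, 139.9 and 152 CPM in Scramble libraries 2 to 5. All PERK KO libraries lay below all Scramble libraries. Sel1l fell by 0.30 and was 1.23-fold lower in PERK KO (SE 0.080, edgeR adjusted p = 0.0284). Without PERK KO library 1 or 2 or Scramble library 2, 3 or 5 its adjusted p was 0.0567, 0.0526, 0.0784, 0.107 and 0.0769, and with RLE or upper-quartile scaling it was 0.0579 and 0.0905. Syvn1 (HRD1), the ubiquitin ligase that Sel1l serves, had 147, 163, 158 and 143 CPM in PERK KO libraries 1 to 4, against 130.1, 143, 147 and 136 CPM in Scramble libraries 2 to 5. Its groups overlapped at a difference of 0.14 (95% interval -0.041 to 0.31, edgeR adjusted p = 0.331).

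Herpud1, a small membrane protein that docks to the ligase and is induced strongly by ER stress, had 96.1, 65.4, 81.6 and 80.5 CPM in PERK KO libraries 1 to 4, against 64.4, 62.7, 61.02 and 65.8 CPM in Scramble libraries 2 to 5. PERK KO libraries 1, 3 and 4 stood above all Scramble libraries, and PERK KO library 2 fell inside the Scramble range. The difference of 0.35 missed the threshold (SE 0.11, edgeR adjusted p = 0.0586). It passed without PERK KO library 2 (adjusted p = 0.0135), without libraries 2 and 3 (0.0149), with the stricter filter (0.0392) and with RLE or upper-quartile scaling, limma-voom and DESeq2 (adjusted p = 0.0375, 0.0338, 0.0322 and 0.0134). Over all alternatives its adjusted p ran from 0.0134 to 0.246. Vcp (p97), the ATPase that pulls substrates out of the membrane, had 371, 320.3, 268 and 337 CPM in PERK KO libraries 1 to 4, against 373, 389, 384 and 416 CPM in Scramble libraries 2 to 5. PERK KO library 3 was lowest, and PERK KO library 1 lay just below the lowest Scramble library. The Vcp difference of -0.27 did not pass (SE 0.10, edgeR adjusted p = 0.102) nor in any alternative.

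The mannose-trimming and lectin genes of ERAD did not pass. Edem1 averaged 213 ± 14.2 CPM in PERK KO and 193 ± 9.93 CPM in Scramble libraries (SD, n = 4 each; difference 0.14, edgeR adjusted p = 0.317). Edem2 averaged 33.5 ± 2.99 CPM in PERK KO and 35.9 ± 4.61 CPM in Scramble libraries (difference -0.10, 95% interval -0.36 to 0.17, edgeR adjusted p = 0.708). Edem3 averaged 116 ± 16.9 CPM in PERK KO and 127 ± 9.67 CPM in Scramble libraries (difference -0.14, 95% interval -0.38 to 0.10, edgeR adjusted p = 0.49). All 3 belong to the family that marks misfolded glycoproteins for removal, and in each the groups overlapped. Os9, the lectin that reads the trimmed sugar, had 107, 172, 124 and 119 CPM in PERK KO libraries 1 to 4, against 121, 112, 119.6 and 100.2 CPM in Scramble libraries 2 to 5. PERK KO library 2 alone was high, and the difference was 0.21 (edgeR adjusted p = 0.385). The channel protein gene Derl1 averaged 100.0 ± 11.6 CPM in PERK KO and 88.3 ± 9.06 CPM in Scramble libraries and its relative Derl2 30.1 ± 3.303 CPM in PERK KO and 27.2 ± 0.518 CPM in Scramble libraries (differences 0.18 and 0.15, edgeR adjusted p = 0.333 and 0.473). Selenos, which recruits Vcp to the membrane, averaged 74.4 ± 11.4 CPM in PERK KO and 67.3 ± 4.51 CPM in Scramble libraries (difference 0.15, edgeR adjusted p = 0.479). Derl3, the derlin of secretory cells, had 0, 0, 13 and 0 counts in PERK KO libraries 1 to 4, against 0, 7, 0 and 0 counts in Scramble libraries 2 to 5. In the libraries without a Derl3 count, a count of 0 allows up to 0.0543 to 0.1 CPM, depending on the library, for counting error alone.

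Ratios between working partners in the same library do not depend on the scaling of libraries. The pairs were chosen by function with the values already known, so they are given without a test. Every pair whose groups did not overlap holds a gene that passed the edgeR test, and no other pair does. The ratios are therefore not separate from those single-gene results, and no share over other gene pairs was computed. The Calr to Canx count ratio was 0.808, 0.985, 0.898 and 0.934 in PERK KO libraries 1 to 4, against 0.723, 0.743, 0.742 and 0.7499 in Scramble libraries 2 to 5. The PERK KO ratios were higher throughout and more scattered, with library 1 nearest to the Scramble libraries. The P4hb to Pdia3 ratio was 0.934, 0.974, 0.955 and 0.863 in PERK KO libraries 1 to 4, against 0.754, 0.713, 0.7896 and 0.677 in Scramble libraries 2 to 5. The Pdia4 to Pdia6 ratio was 1.25, 1.54, 1.36 and 1.43 in PERK KO libraries 1 to 4, against 1.05, 0.983, 1.04 and 0.925 in Scramble libraries 2 to 5. For both isomerase ratios every PERK KO library lay above every Scramble library.

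The Syvn1 to Sel1l ratio of the ligase and its adaptor was 1.27, 1.37, 1.199 and 1.18 in PERK KO libraries 1 to 4, against 0.8699, 0.9003, 1.05 and 0.896 in Scramble libraries 2 to 5. It was above 1 in all PERK KO libraries and in Scramble library 4, and the groups did not overlap. The Sil1 to Hspa5 ratio, an exchange factor over its Hsp70, was 0.0334, 0.0478, 0.03399 and 0.0279 in PERK KO libraries 1 to 4, against 0.0205, 0.0256, 0.0214 and 0.0196 in Scramble libraries 2 to 5, also without overlap. Ratios of Hyou1 and of Hsp90b1 to Hspa5, of Derl1 to Derl2, of Edem1 to Edem3 and of Ero1lb to Ero1l overlapped between groups. Their mean log2 differences were 0.076, 0.15, 0.038, 0.29 and 1.02.

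**Figure D4:**
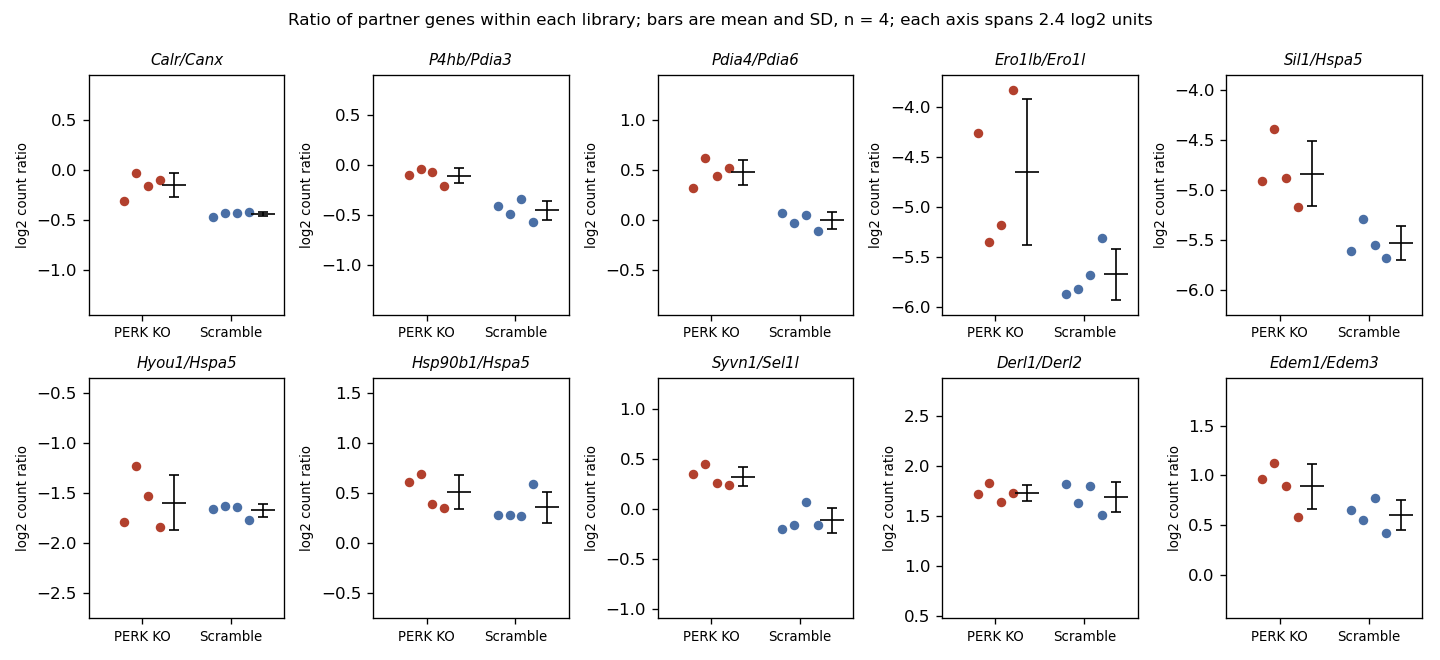
Log2 ratio of counts of 10 functional pairs (vertical axis, the same span in every panel) in PERK KO (left) and Scramble libraries (right), with mean and SD (n = 4). The groups separate for Calr to Canx, P4hb to Pdia3, Pdia4 to Pdia6, Sil1 to Hspa5 and Syvn1 to Sel1l and overlap for the other pairs. Each separating pair holds a gene that passed the edgeR test, and no overlapping pair does.

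Levels of different genes were compared per kilobase of exon. In CPM per kilobase the most abundant were Hsp90b1 (312 in PERK KO and 282 in Scramble libraries), Calr (299 in PERK KO and 301 in Scramble libraries), P4hb (284 in PERK KO and 223 in Scramble libraries), Pdia3 (279 in PERK KO and 277 in Scramble libraries), Hspa5 (209.5 in PERK KO and 210.3 in Scramble libraries) and Canx (203 in PERK KO and 249.8 in Scramble libraries). P4hb ranked 3 of 36 in PERK KO and 5 in Scramble libraries, and Canx ranked 6 in PERK KO and 4 in Scramble libraries. Pdia4 ranked 7 in both groups (199 in PERK KO and 161 in Scramble libraries). Its range in PERK KO libraries overlapped those of Canx and Hspa5, so their order there is not settled. In PERK KO libraries the ranges of Hsp90b1 and Calr, of Calr and P4hb, of P4hb and Pdia3 and of Hspa5 and Canx overlapped, while every library had more Pdia3 than the highest Hspa5 value. In Scramble libraries the range of Hsp90b1 overlapped those of Calr and Pdia3, while every library had more Calr than the highest Pdia3 value. P4hb and Hspa5 overlapped as well, while Canx lay apart from both Pdia3 above it and P4hb below it. The most abundant ERAD genes per kilobase were Vcp (66.8 in PERK KO and 80.5 in Scramble libraries), Selenos (50.4 in PERK KO and 45.6 in Scramble libraries) and Os9 (49.7 in PERK KO and 43.1 in Scramble libraries). Exon lengths count all annotated exons and so understate levels of genes with long unused exons.

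Other genes of the same pathways were counted as whole lists. Of 32 tested other ER folding factors (35 listed), 1 rose and 5 fell, with a median log2 change of 0.0041. Of all tested genes 7.66% rose and 6.13% fell. The collagen chaperones Fkbp10 and Serpinh1 (HSP47) fell. Fkbp10 averaged 21.3 ± 4.12 CPM in PERK KO and 37.9 ± 2.27 CPM in Scramble libraries and Serpinh1 500.2 ± 42.98 CPM in PERK KO and 679 ± 17.5 CPM in Scramble libraries (SD, n = 4 each; log2 changes -0.83 and -0.44, edgeR adjusted p = 0.00413 and 0.0059). Fkbp14, a prolyl isomerase that also acts on collagen, rose, with 27.98 ± 4.92 CPM in PERK KO and 17.2 ± 2.44 CPM in Scramble libraries (0.70, edgeR adjusted p = 0.0149). Dnajc3 (P58IPK), a co-chaperone of BiP, fell, with 166 ± 6.21 CPM in PERK KO and 208 ± 7.98 CPM in Scramble libraries (-0.32, edgeR adjusted p = 0.015).

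Of 42 tested other ERAD factors (43 listed), 1 rose and 3 fell, with a median of -0.11, where 7.66% of all tested genes rose and 6.13% fell. The deubiquitinase Usp19 averaged 91.4 ± 4.28 CPM in PERK KO and 129 ± 2.704 CPM in Scramble libraries and fell (log2 change -0.50, edgeR adjusted p = 0.00239). The deubiquitinase gene Atxn3 also fell (-0.38, edgeR adjusted p = 0.0481). Aup1, which brings a ubiquitin-conjugating enzyme to the ER membrane, rose by 0.29 (edgeR adjusted p = 0.0372).

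Of 15 genes of the stress sensors and their factors, 1 rose and 3 fell, and Eif2ak3 is 1 of those that fell. Over all tested genes the shares were 7.66% risen and 6.13% fallen. Atf6, the sensor behind many chaperone genes, averaged 192 ± 9.24 CPM in PERK KO and 234 ± 6.66 CPM in Scramble libraries, and Mbtps1, the protease that releases it, 73.5 ± 9.45 CPM in PERK KO and 93.1 ± 2.06 CPM in Scramble libraries (SD, n = 4 each). Both fell (log2 changes -0.29 and -0.34, edgeR adjusted p = 0.0248 and 0.0405). Creb3l1, a related membrane-bound factor, rose by 1.46 (edgeR adjusted p = 0.00273).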

How the data were processed

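RNA of c-Kit-enriched tumour cells was sequenced as strand-specific libraries from 100 ng of RNA with pairs of 105 bases, per the labels' protocols. The submitters' processing notes name bcl2fastq, STAR 2.5.3a, HTSeq 0.6.1, DESeq2 1.30.1 and mm10, without settings. The authors deposited raw counts per gene, which were analysed, and a normalized signal, which proved to be those counts over a constant for each library and served only as a check. Every one of the 55450 identifiers matched GENCODE M21, which gave positions and exon lengths.

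Genes were filtered with filterByExpr by group, scaled with TMM and tested with edgeR 4.0.16 (robust quasi-likelihood, ~ group) in R 4.3.3, with adjustment over 16662 genes. Standard errors are the log2 change over the square root of F, and intervals use the fit's degrees of freedom. CPM use totals of all genes. Alternatives used limma 3.58.1 (voom) and DESeq2 1.42.0, other scalings and filters, a replicate block and leaving out libraries. Replicates differed by far more than sampling noise. Members and lists were chosen with earlier results of these data known. The named genes are all members, Eif2ak3, Kit and, of each companion list, up to 4 called genes with the smallest p, of which 1 is not reported here. Floors and intervals cover counting error or these samples only. Tables, motifs and plots were made with Python 3.11.15, pandas 2.3.3, numpy 2.4.6 and matplotlib 3.10.9.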

Additional observations from a re-analysis of the deposited data

Results flagged for a closer look

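In 3 of 70 groups of 4 libraries, 1 library lay far from the other 3 by Dixon's criterion, where chance flags about 1 group in 20. Sdf2l1 had 60.2 CPM in PERK KO library 4, below its other PERK KO libraries. Calr had 904 CPM in PERK KO library 2, above the other PERK KO libraries. Fkbp2 had 50.2 CPM in Scramble library 2, below the other Scramble libraries.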

How the results depend on the processing

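Leaving out single libraries gave 2 to 7 folding genes called higher, 0 to 2 called lower, 0 to 1 ERAD genes called higher, 0 to 1 called lower and 1078 to 2616 genes called in all, against 4, 2, 0, 1 and 2299 with all libraries. Folding genes called higher numbered 2 with library totals alone, where 6.39% of all genes were called higher. Folding genes called lower numbered 4 in limma-voom (6.34% of all genes were called lower) and 4 with library totals alone (7.02%), 1 with RLE scaling (4.6%), 1 with no filter (3.68%), 1 with at least 1 CPM in 4 libraries (6.38%) and 0 with upper-quartile scaling (3.92%). ERAD genes called higher numbered 1 in DESeq2, limma-voom, RLE and upper-quartile scaling, the stricter filter and without PERK KO libraries 2 and 3. Of all genes 11.3, 8.49, 8.19, 8.58, 9.75 and 7.2% were called higher in these 6 settings, in that order. ERAD genes called lower numbered 0 with RLE and with upper-quartile scaling. The folding median was 0.12 with upper-quartile scaling and -0.013 with library totals alone. The ERAD median was 0.18 with DESeq2 and with RLE, 0.20 with upper-quartile, 0.067 with library totals alone and 0.062 without PERK KO libraries 2 and 3. The cause of these shifts was not tested. Other scalings moved the median of all genes by at most 0.073 in log2.

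Labels number both groups but do not say that a number marks a shared mouse or day, and deviations of same-numbered libraries correlated at -0.028, 0.10 and -0.28 for numbers 2 to 4. The PERK KO library correlated best with its own number only for number 3. With the replicate block over these 6 libraries 0 folding genes were called higher, 0 lower, 0 ERAD genes higher and 0 lower, and 199 genes in all. The same 6 libraries without the block gave 1, 0, 0, 0 and 1334. Over all members and settings, 592 values kept their side of the threshold, 48 lost it and 25 gained it. Direction turned only in Hspa5, Dnajb11, Calr, Hyou1, Pdia3, Txndc5 and Ppib, none of which passed the edgeR test. Leaving out PERK KO libraries 2 and 3 was chosen after seeing the data. Derl3 had too few reads to be tested.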

Other observations

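The genes varied more among PERK KO than among Scramble libraries. The coefficient of variation over 4 libraries had a median of 11.8% in PERK KO and 5.35% in Scramble libraries over the 35 tested genes, and was wider in PERK KO for 32 of them. Over all tested genes with a value in both groups the medians were 25.6% in PERK KO and 13.2% in Scramble libraries, and 82.3% of genes were wider in PERK KO. PERK KO library 1 had the highest level of 12 members, PERK KO library 2 of 7, PERK KO library 4 of 4 and PERK KO library 3 of 1, and single Scramble libraries of 2 to 3 each. Such counts were not made over all tested genes, so they are not shown to be particular to the members. PERK KO library 1 was the highest of all 8 for Hspa5, Hsp90b1, Dnajb9, Sdf2l1, Manf, Pdia4, Creld2, Fkbp2, Fkbp11, Derl1, Derl2 and Herpud1, and the lowest of all 8 for Txndc11, Dnajc10, Ero1l and Sel1l.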
